A study of Homo sapiens with 8 samples.

Results

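A set of 9 genes of amino acid uptake was followed across the arrays: SLC7A5, SLC3A2, SLC43A1, SLC7A11, SLC1A5, SLC1A4, SLC38A1, SLC38A2 and SLC7A1. They were chosen by name, with earlier results of these data known, and all 9 of 9 had a probe set, out of 17491 genes with a symbol. Each of the 9 was read by 1 probe set. The samples were lymph nodes holding metastases of SkMel147, a human skin melanoma line, grown from subcutaneous tumours in BALB/c nude mice, which lack a thymus and keep other host cells. Of 8 Affymetrix arrays, 4 came from mice given the vehicle and 4 from mice given doxycycline in the drinking water, started when tumours reached about 750 mm3. The nodes were taken 2 days after treatment. Doxycycline was given to switch on Omomyc, a dominant-negative form of the MYC dimerization domain, in the tumour cells. The labels do not name a control line without the transgene, so effects of doxycycline itself and of Omomyc cannot be told apart. The labels call the samples biological replicas, and the series' design text speaks of melanomas where the sample labels give lymph node metastases.

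Growing cells import amino acids for protein, nucleotide and glutathione synthesis through carriers of several families. SLC7A5 (LAT1) and SLC7A11 (xCT) are light chains that reach the membrane as partners of the heavy chain SLC3A2 (CD98). SLC7A5 takes up leucine and other large neutral amino acids in exchange for glutamine, and SLC7A11 takes up cystine in exchange for glutamate. SLC43A1 (LAT3) carries large neutral amino acids without a heavy chain. SLC1A5 (ASCT2) and SLC1A4 (ASCT1) are sodium-dependent exchangers of small neutral amino acids, SLC1A5 also of glutamine, while SLC38A1 (SNAT1) and SLC38A2 (SNAT2) bring in glutamine, alanine and serine with sodium. SLC7A1 (CAT1) carries arginine and lysine. Several of these genes are described in other systems as targets of MYC, which binds the E-box CACGTG together with MAX, and of ATF4, which is made when amino acids are short and binds amino acid response elements.

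The letters of both motifs were looked for in the RefSeq promoter windows of the members (GRCh38.p14, 250 bases before to 50 bases after a start), because Omomyc acts at E-boxes and ATF4 at amino acid response elements. The table held 15 windows for 8 of the 9 members, some genes having several starts, and SLC7A11 was not among them. On both strands, CACGTG lay in 3 of the 15 windows, or 20%, against 7.26% of 35116 windows of all genes. The response element core TGATGNAA lay in 5 of the 15 windows, or 33.3%, against 3.62% of all windows. No member window held both motifs, so no match overlapped another. The GC content of the member windows ran from 43.3% to 82.0%, and that of all windows was not counted. Several members are described targets of MYC or ATF4 and several windows share a gene. These shares are therefore a description, and an enrichment was not tested. A match describes these letters and is not a measured binding site. The matches are shown 5′ to 3′ on the gene's strand, within 30 bases, with the matched letters in capitals. Positions count from 1 at the first base of the start to which each window belongs. For SLC3A2, SLC1A5, SLC38A1 and SLC1A4 every match shown lies at a start downstream of another start of the gene.
SLC7A5 (E-box at -130, chr16:87869620-87869649, minus strand): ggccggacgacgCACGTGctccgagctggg
SLC1A5 (E-box at -50, chr19:46787326-46787355, minus strand): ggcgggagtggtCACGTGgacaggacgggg
SLC43A1 (E-box at -112, chr11:57515797-57515826, minus strand): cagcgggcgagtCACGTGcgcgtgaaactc
SLC1A5 from another start (response element core at -97, chr19:46784893-46784922, minus strand): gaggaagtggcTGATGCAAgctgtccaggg
SLC1A4 (response element core on the opposite strand at -7, chr2:64989381-64989410, plus strand): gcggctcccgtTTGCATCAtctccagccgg
SLC38A1 (response element core at -4, chr12:46266502-46266531, minus strand): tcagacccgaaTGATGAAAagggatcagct
SLC7A1 (response element core at 8, chr13:29595663-29595692, minus strand): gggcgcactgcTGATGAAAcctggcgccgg
SLC3A2 (response element core on the opposite strand at 38, chr11:62881719-62881748, plus strand): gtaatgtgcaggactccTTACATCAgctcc

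One array stood apart before any comparison. Across genes, vehicle replicate 1 correlated with the other arrays at 0.930 to 0.951, whereas the other 7 correlated with each other at 0.972 to 0.983. Member differences that changed sign or moved by over 1.5 times without this array are given both ways. Array medians lay between 5.07 and 5.12 on the log2 scale, and over all genes the standard error of the difference had a median of 0.15. Of 12 melanoma markers, 11 were measured, 3 of them (TYR, TYRP1 and GPR143) with means below every array median. Their mean level was 5.22 in vehicle replicate 1 and 5.33 to 5.44 in the other 7 arrays. The single markers did not move together in vehicle replicate 1. MLANA, PMEL, S100B and MIA had their lowest value of all arrays there, AXL had its highest, and the remaining markers lay between their extremes. Of all genes, 28.8% had their lowest and 15.2% their highest value in this array, and whether it held less tumour RNA was not tested. In such bulk tissue, fewer cells of a type and less RNA per cell cannot be told apart, and human probes may also read mouse transcripts, which was not measured.

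With doxycycline, 0 of the 9 transporter genes passed limma's test at an adjusted p under 0.05, where 0.00% of all 17491 genes did. At an unadjusted p under 0.05 there were 0 of 9 members against 3.80% of all genes. The groups overlapped for all 9 members, while they did not overlap for 2.62% of all genes. The difference, doxycycline minus vehicle, was below 0 for 5 members and above 0 for 4, beside 44.5% of all genes below 0. The median difference over the members was -0.12 on the log2 scale against 0.02 over all genes. Without vehicle replicate 1 the members' median was 0.03 against 0.00315 over all genes, 4 members lay below 0 beside 49.2% of all genes, and again 0 of 9 passed.

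**Figure D1:**
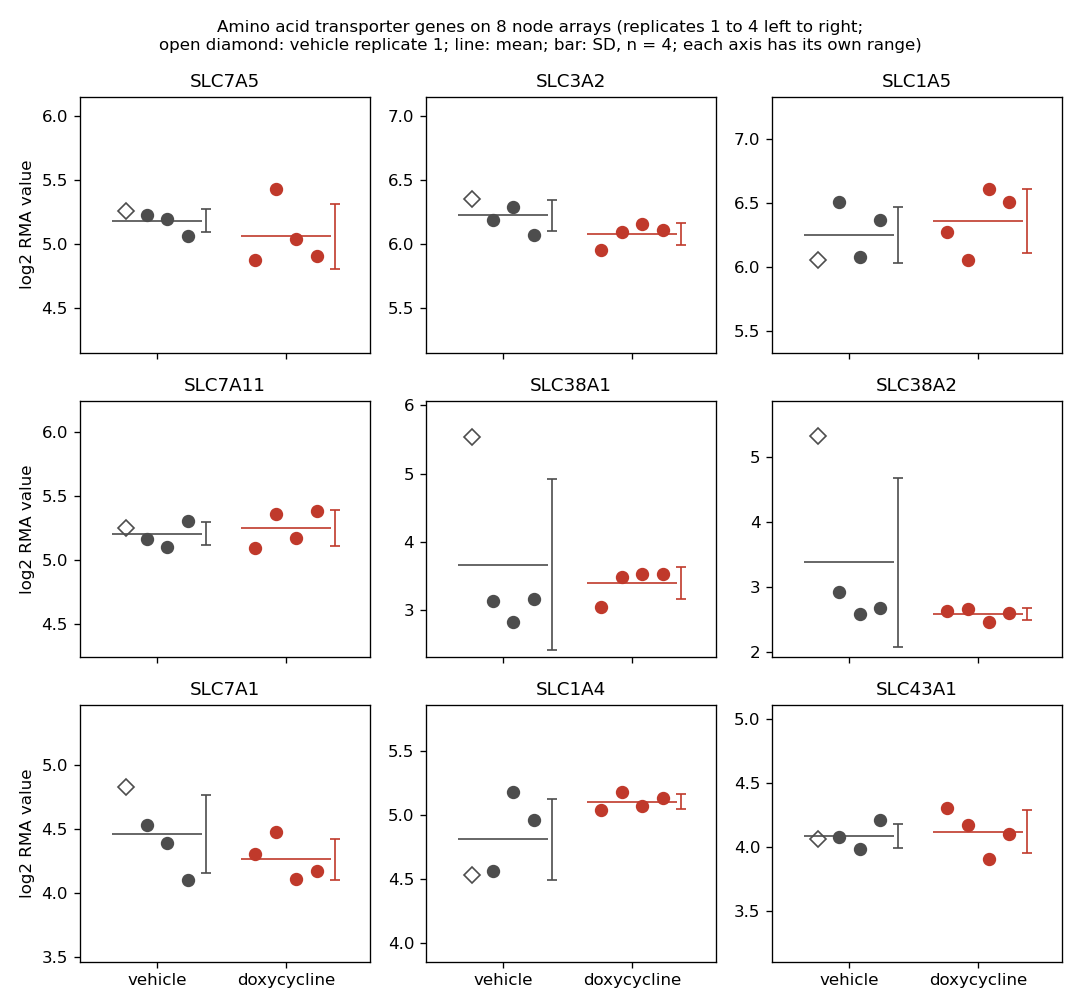
Log2 RMA value (vertical axis) of each of the 9 transporter genes on the 4 vehicle arrays (grey) and the 4 doxycycline arrays (red), with the group mean as a line and the SD as a bar. Vehicle replicate 1 (open diamond) lies far above the other arrays for SLC38A1 (5.54) and SLC38A2 (5.32), and in every panel the groups overlap.

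The heavy chain and its leucine-carrying light chain had means slightly below those of the vehicle group, and neither passed the test. SLC3A2 was at 6.34, 6.19, 6.28 and 6.07 in vehicle replicates 1 to 4 and at 5.95, 6.09, 6.16 and 6.10 in doxycycline replicates 1 to 4 (log2 values, as for all members). Vehicle replicates 1, 2 and 3 lay above every doxycycline array and vehicle replicate 4 lay among them. The SLC3A2 means were 6.22 ± 0.12 (SD, n = 4) and 6.07 ± 0.09 (SD, n = 4), a difference of -0.15 ± 0.12 (SE) with a 95% confidence interval from -0.40 to 0.11 (limma adjusted p = 0.987). SLC7A5, the LAT1 light chain, was at 5.25, 5.22, 5.20 and 5.06 with vehicle and at 4.88, 5.43, 5.04 and 4.91 with doxycycline. Doxycycline replicate 2 was the highest of the 8 arrays for SLC7A5, and the other 3 doxycycline arrays were the lowest. The SLC7A5 difference was -0.12 ± 0.14 (SE), with an interval from -0.43 to 0.19, which corresponds to 0.742-fold to 1.14-fold (limma adjusted p = 0.987). It was -0.24 without doxycycline replicate 2 and -0.06 without doxycycline replicate 1. Over the 8 arrays SLC7A5 and SLC3A2 had a Pearson r of 0.52 and a Spearman rho of 0.50, and over the 7 arrays without vehicle replicate 1 an r of 0.45, given as a description of arrays that share their normalization.

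SLC43A1, the large neutral amino acid carrier that needs no heavy chain, was at 4.06, 4.07, 3.98 and 4.21 with vehicle and at 4.30, 4.17, 3.90 and 4.10 with doxycycline. Doxycycline arrays were both the highest and the lowest of the 8 for SLC43A1. Its difference was 0.04 ± 0.13 (SE), with an interval from -0.24 to 0.31, and it turned to -0.03 without doxycycline replicate 1 (limma adjusted p = 0.994 with all arrays). The cystine carrier SLC7A11 was at 5.25, 5.17, 5.10 and 5.31 with vehicle and at 5.10, 5.36, 5.17 and 5.39 with doxycycline. SLC7A11 had the narrowest spread of the members, a range of 0.29 over the 8 arrays, and 3.45% of all genes had a range that small or smaller. Its difference was 0.05 ± 0.12 (SE), with an interval from -0.22 to 0.31 or 0.861-fold to 1.24-fold (limma adjusted p = 0.991). With 1 array left out in turn it ran from 0.00297 without doxycycline replicate 4 to 0.10 without doxycycline replicate 1.

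The sodium-dependent exchangers of the SLC1 family lay slightly above the vehicle means with doxycycline, without passing the test. SLC1A5, the ASCT2 glutamine exchanger, was at 6.06, 6.51, 6.08 and 6.37 with vehicle and at 6.27, 6.06, 6.61 and 6.51 with doxycycline. High and low SLC1A5 arrays occurred in both groups, and the difference was 0.11 ± 0.16 (SE) with an interval from -0.23 to 0.45 (limma adjusted p = 0.987). Single arrays moved the SLC1A5 difference, to 0.04 without vehicle replicate 1, 0.02 without doxycycline replicate 3 and 0.21 without doxycycline replicate 2. SLC1A4, the ASCT1 exchanger of alanine, serine and cysteine, was at 4.53, 4.57, 5.18 and 4.96 with vehicle and at 5.04, 5.18, 5.07 and 5.13 with doxycycline. The 4 doxycycline arrays lay close together for SLC1A4, while vehicle replicates 1 and 2 were low and vehicle replicate 3 was at the doxycycline level. Its means were 4.81 ± 0.31 (SD, n = 4) and 5.11 ± 0.06 (SD, n = 4). The SLC1A4 difference of 0.30 ± 0.15 (SE), with an interval from -0.04 to 0.63, had the smallest unadjusted p of the members in limma, 0.0796 (limma adjusted p = 0.987). Single vehicle arrays moved this difference, to 0.20 without vehicle replicate 1 and 0.42 without vehicle replicate 3. By exact permutation of the group labels (70 arrangements, two-sided) p was 0.143 for SLC1A4, where the design can reach 0.0286 at the lowest.

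SLC38A1 and SLC38A2, which take up glutamine and other neutral amino acids with sodium, were set apart by 1 array. SLC38A1 was at 5.54, 3.13, 2.84 and 3.17 with vehicle and at 3.06, 3.49, 3.53 and 3.53 with doxycycline. SLC38A2 was at 5.32, 2.92, 2.58 and 2.68 with vehicle and at 2.62, 2.66, 2.45 and 2.60 with doxycycline. Vehicle replicate 1 was thus 2.29 above the mean of the other 7 arrays for SLC38A1 and 2.67 above it for SLC38A2. Only 3.43% of all genes lay more than 1 log2 unit above the mean of the other 7 arrays in vehicle replicate 1. The range over the 8 arrays was 2.70 for SLC38A1 and 2.87 for SLC38A2, and 99.6% and 99.7% of all genes had a range that wide or narrower. In the other 7 arrays the ranges were 0.69 and 0.47, beside a median of 0.54 over all genes. The mean level of SLC38A2 over those 7 arrays, 2.65, and that of SLC38A1, 3.25, lay below every array median, so small differences there rest on dim probe sets whose signal over background was not assessed.

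With all arrays the SLC38A2 difference was -0.79 ± 0.47 (SE), the farthest from 0 among the members, with an interval from -1.82 to 0.23 (limma adjusted p = 0.987). Without vehicle replicate 1 it was -0.14 ± 0.13 (SE), with an interval from -0.43 to 0.14. For SLC38A1 the difference was -0.27 ± 0.46 (SE), with an interval from -1.27 to 0.73 (limma adjusted p = 0.989). It changed sign without vehicle replicate 1, to 0.35 ± 0.15 (SE), with vehicle replicates 2 to 4 at a mean of 3.05 ± 0.18 (SD, n = 3) and the doxycycline arrays at 3.40 ± 0.23 (SD, n = 4). In that fit the unadjusted limma p was 0.0372 and the adjusted p 0.962, where 4.91% of all genes had an unadjusted p under 0.05. The groups of SLC38A1 still overlapped there, since doxycycline replicate 1 lay within the vehicle range, while those of 5.67% of all genes did not. The Pearson r between SLC38A1 and SLC38A2 was 0.93 over the 8 arrays, and without vehicle replicate 1 it was -0.29 over the remaining 7, with a Spearman rho of 0.21 and -0.18.

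The pair are neighbouring protein-coding genes on chromosome 12 in the RefSeq table. The protein-coding genes on either side, named here after their values were seen, showed no such excess in their array values. SCAF11 was at 2.99 in vehicle replicate 1 and at 2.65 to 3.46 in the other 7 arrays. SLC38A4, another sodium-coupled carrier, was at 2.86 against 2.63 to 3.26. Both lay below every array median on every array, and signal over background was not assessed, so these dim probe sets may miss an excess. SLC38A5, a glutamine carrier of the same family, went the other way, with 4.01 in vehicle replicate 1 and 4.61 to 5.69 in the other 7 arrays. It too was named after its values were seen. Of the 39 other carriers described below, it was the only 1 more than 1 log2 unit below the mean of the other 7 arrays.

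**Figure D2:**
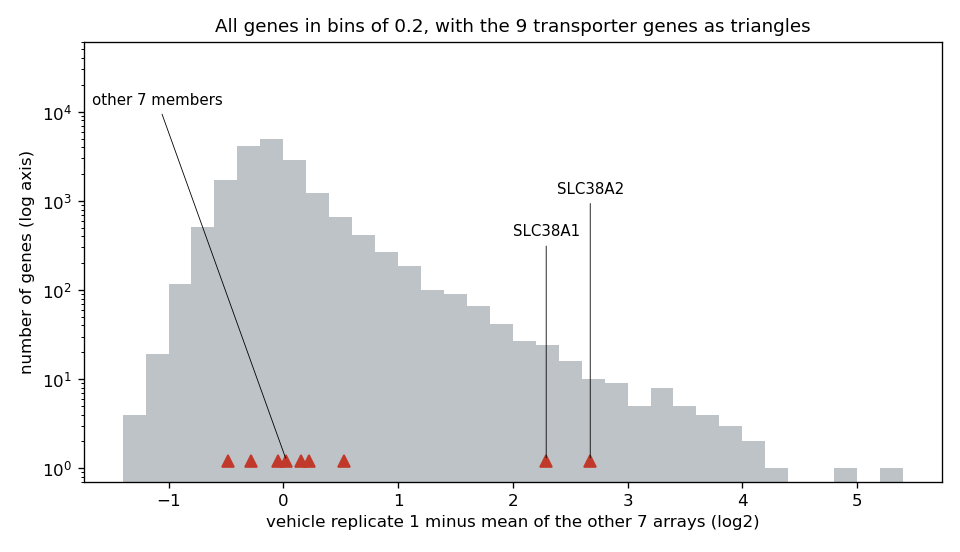
Number of genes (vertical log axis) by the value of vehicle replicate 1 minus the mean of the other 7 arrays (horizontal axis, log2, bins of 0.2), with the 9 transporter genes as triangles. SLC38A1 at 2.29 and SLC38A2 at 2.67 lie in the far right tail, and the remaining members lie between -0.48 and 0.53.

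SLC7A1, the arginine and lysine carrier, was at 4.83, 4.53, 4.39 and 4.10 with vehicle and at 4.30, 4.47, 4.11 and 4.17 with doxycycline. Vehicle arrays were both the highest and the lowest of the 8, the highest being vehicle replicate 1. The SLC7A1 difference was -0.20 ± 0.16 (SE), with an interval from -0.55 to 0.15 (limma adjusted p = 0.987). It was -0.08 without vehicle replicate 1 and -0.32 without vehicle replicate 4.

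Vehicle replicate 1 was the highest of the 8 arrays for 4 members (SLC3A2, SLC38A1, SLC38A2 and SLC7A1) and the lowest for SLC1A4, whereas 15.2% of all genes had their highest and 28.8% their lowest value there. The mean deviation of the members from their own 8-array means was 0.49 in this array and between -0.14 and 0.02 in the other 7. Over the members other than SLC38A1 and SLC38A2 this mean was 0.01 for vehicle replicate 1, with values from -0.05 to 0.07 on the remaining arrays. Of 36 pairs of members, 17 had a Pearson r above 0 over the 8 arrays and 16 over the 7 without vehicle replicate 1, with medians of -0.04 and -0.02.

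The width of the intervals differed among the members. For 7 of the 9, the 95% confidence interval lay within 2-fold in either direction, with outermost bounds of 0.684-fold for SLC7A1 and 1.55-fold for SLC1A4. SLC38A1 and SLC38A2 had intervals of 0.414-fold to 1.66-fold and 0.284-fold to 1.17-fold. These limits refer to array values of the whole node. They are not limits on RNA amounts, since neither signal over background nor the share of tumour RNA was measured.

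**Figure D3:**
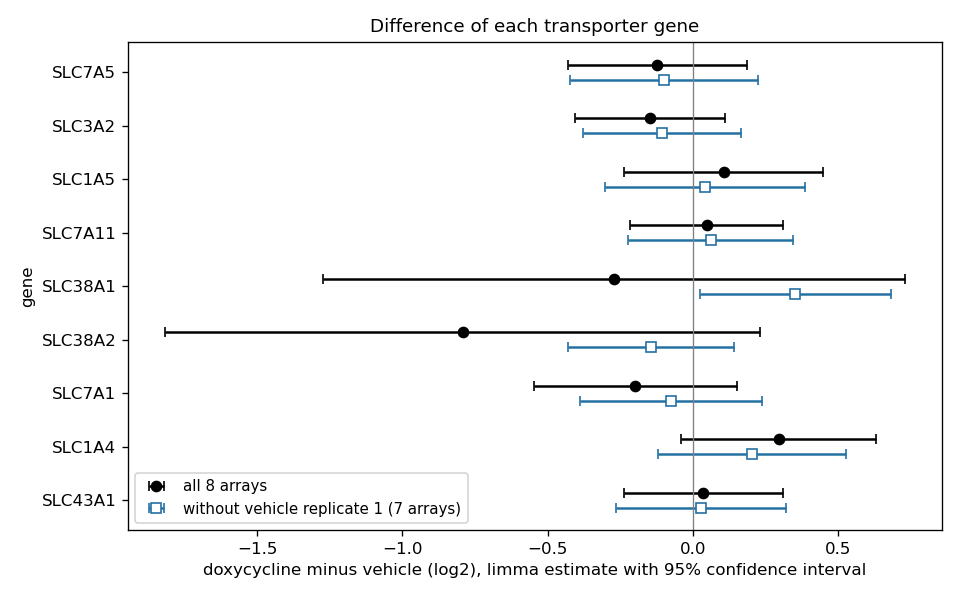
Doxycycline minus vehicle (horizontal axis, log2, limma estimate with 95% confidence interval) for each transporter gene (vertical axis), with all 8 arrays (filled circles) and without vehicle replicate 1 (open squares). The wide intervals of SLC38A1 and SLC38A2 narrow without that array, and SLC38A1 moves from -0.27 to 0.35.

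Other carriers of amino acids were taken as a list, from the SLC1, SLC3, SLC6, SLC7, SLC16, SLC36, SLC38 and SLC43 families and the lysosomal exporters. All 39 of 39 were measured, 0 passed in either direction, 26 lay above 0 and 13 below, and the median difference was 0.10 beside 0.02 over all genes. At an unadjusted p under 0.05, 3 were higher and 1 was lower, where 2.49% and 1.31% of all genes were. SLC1A3, a glutamate carrier, had the smallest p among those above 0, with group means of 6.34 ± 0.07 (SD, vehicle) and 6.69 ± 0.27 (SD, doxycycline), a difference of 0.35 that was 0.23 without doxycycline replicate 4. SLC7A3, an arginine carrier, had the smallest among those below 0, at 4.96 ± 0.11 (SD, n = 4) and 4.63 ± 0.29 (SD, n = 4). The other two, named after their values were seen, were SLC6A6, a taurine carrier (7.09 and 7.38), and SLC7A10, a serine carrier known from neurons and fat cells (6.97 and 7.31). The mean of 6 measured adipocyte markers of 7 listed was 4.99 to 5.30 in the vehicle arrays and 5.39 to 5.68 in the doxycycline arrays, and its part in these values was not tested. Of these markers 5 lay above 0 and PLIN1 below, at -0.13, and 3 had means below every array median. The mean of 7 skeletal muscle markers ran from 5.997 to 6.74 with vehicle and from 6.22 to 7.05 with doxycycline. The adipocyte and muscle means had the largest differences of the marker lists, 0.40 and 0.45, where the others ran from -0.02 to 0.11. Without vehicle replicate 1, 21 of the 39 carriers lay above 0 and 18 below, with a median of 0.01, and at an unadjusted p under 0.05 there were 1 higher (SLC6A6) and 1 lower (SLC7A3).

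Regulators that are known to act on the members were next. ATF4 was at 6.45, 5.90, 5.65 and 5.90 with vehicle and at 5.38, 5.73, 5.56 and 5.67 with doxycycline. Vehicle replicate 1 was the highest ATF4 array, and vehicle replicate 3 lay among the doxycycline arrays. The ATF4 difference was -0.39 ± 0.17 (SE) with an adjusted limma p of 0.987, and -0.23 without vehicle replicate 1. Of 23 genes of ATF4 and the amino acid response 20 were measured, 0 passed, 9 lay above 0 and 11 below, with a median of -0.06. ASNS, the asparagine synthetase gene and an ATF4 target, was at 3.79 ± 0.19 (SD, n = 4) and 3.71 ± 0.28 (SD, n = 4), a difference of -0.08 that turned to 0.01 without vehicle replicate 1 and to 0.03 without doxycycline replicate 2. SESN2, a stress-induced leucine sensor, differed by 0.27 ± 0.14 (SE) in this list.

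MYC was at 6.08, 6.31, 5.57 and 6.22 with vehicle and at 5.77, 5.52, 5.75 and 5.76 with doxycycline. Vehicle replicates 1, 2 and 4 lay above all doxycycline arrays for MYC, and vehicle replicate 3 among them. Of 13 genes of the MYC network 12 were measured, 0 passed, and 6 lay above 0 and 6 below, from MYC at -0.35 to MNT, a MAX-binding repressor, at 0.18. Without vehicle replicate 1, 4 of the 12 lay above 0 and 8 below, with MNT at 0.11. Among the members with an E-box in a promoter window, the difference was below 0 for SLC7A5 and above it for SLC1A5 and SLC43A1, the last with a sign that turned without doxycycline replicate 1, and none passed.

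NFE2L2, which encodes NRF2, a regulator of SLC7A11 and of glutathione synthesis, differed by 0.14 ± 0.12 (SE), or 0.08 without vehicle replicate 3. Of 14 genes of NRF2 and glutathione 12 were measured, 0 passed, and 4 lay above 0 and 8 below, with a median of -0.02. Without vehicle replicate 1 there were 6 above and 6 below. HMOX1, the heme oxygenase gene, had means of 5.002 ± 0.14 (SD, vehicle) and 5.26 ± 0.10 (SD, doxycycline), and SLC48A1, a heme transporter, differed by -0.09 ± 0.14 (SE), or -0.21 without vehicle replicate 1, -0.05 without vehicle replicate 2 and -0.02 without vehicle replicate 3. Enzymes that use glutamine, proline and branched-chain amino acids gave 0 passing of 14 measured among 19 listed, 4 above 0 and 10 below, with a median of -0.03, and without vehicle replicate 1 there were 7 above and 7 below. BCKDHA, a subunit of the branched-chain keto acid dehydrogenase, differed by 0.30 ± 0.16 (SE), or 0.20 without doxycycline replicate 4. PYCR3, a proline-making reductase, differed by -0.16 ± 0.13 (SE), or -0.09 without vehicle replicate 2.

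Among genes by which mTORC1, the growth kinase complex, senses amino acids, 35 of 38 were measured, 0 passed, and 22 lay above 0 and 13 below, with a median of 0.03. TSC2, an inhibitor of the pathway, had means of 6.09 ± 0.17 (SD, vehicle) and 6.35 ± 0.15 (SD, doxycycline), while SESN3, a sestrin, differed by -0.21 ± 0.19 (SE), or -0.04 without vehicle replicate 2, -0.08 without doxycycline replicate 3 and -0.31 without vehicle replicate 1. An excess of more than 1 log2 unit in vehicle replicate 1 was seen for 2 of the 9 members and 3.43% of all genes. It was seen for 0 of the 39 other carriers and for 4 genes of the remaining lists. These were BCAT1, a branched-chain aminotransferase (5.86 against a mean of 3.80 in the other 7 arrays), SEH1L, a subunit of the GATOR complex and the nuclear pore (6.28 against 4.53), MTHFD2, a mitochondrial folate enzyme (5.13 against 3.64), and LARS1, the leucyl-tRNA synthetase (4.23 against 3.22). They were named after their values were seen. By list they were 1 of 20 measured genes of ATF4 and the amino acid response and 1 of 14 of glutamine, proline and branched-chain metabolism. The mTORC1 list had 2 of 35, and the NRF2 and MYC lists had 0 of 12 each.

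**Figure D4:**
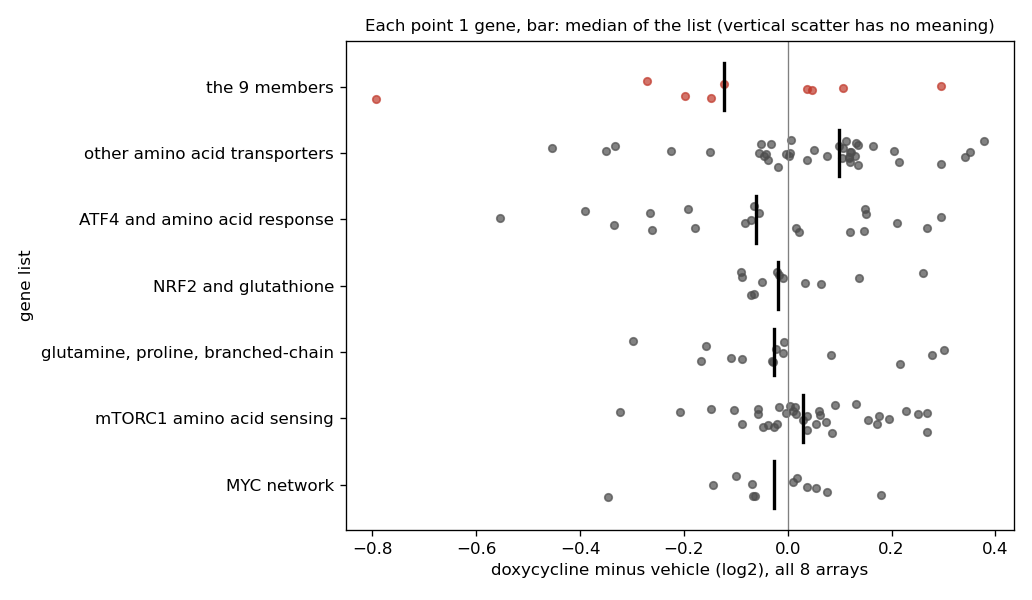
Doxycycline minus vehicle (horizontal axis, log2, all 8 arrays) for each gene of the transporter set and of the 6 related lists (vertical axis), with 1 point per gene and a bar at each list's median. The medians lie between -0.12 for the 9 members and 0.10 for the other carriers, and SLC38A2 at -0.79 is the leftmost point.

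The genes whose values followed SLC7A5 most closely over the 8 arrays were ARPC4-TTLL3, a read-through transcript (Pearson r = 0.99), PLSCR4, a phospholipid scramblase (0.96), and SNX15, a sorting nexin (0.95), out of 17490 other genes. Over the 7 arrays without vehicle replicate 1 they were SNX15, TMEM82 and ARPC4-TTLL3, each at 0.99, while TMEM82 had an r of 0.07 over all 8. All of these arrays share a normalization, and the highest r of so many genes over 8 points is high by selection. None of the 9 members was among them.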

How the data were processed

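Whole-node total RNA was hybridized to 1 Affymetrix array per sample. The authors deposited RMA values, 1 per probe set and array, per the submitters' processing notes (version, build and image analysis not given in the sources used here). The range of the deposited values gives a log2 scale. RMA equalizes the distributions of the arrays, so each value is relative to the rest of its array. The platform annotation gave 1 symbol for 17509 of 18565 probe sets, several for 0 and none for 1056, and all 17509 gene identifiers matched RefSeq. The probe set with the highest mean stood for each of 16 genes that had several. Differences were fitted over all genes with limma 3.58.1 (lmFit, eBayes, two-sided, Benjamini-Hochberg, threshold 0.05) in R 4.3.3 (package data.table, version 1.17.8). The fit was run on simulated normal values with known changes in some genes. Those values held no outlying array, unlike these data. Plots used matplotlib 3.10.9 in Python 3.11.15. The members and lists were chosen with earlier results of these data known, and listed genes without a probe set were not analysed here.

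Named were the 9 members, the gene with the smallest p per list and direction, ATF4, MYC, NFE2L2, ASNS and the 3 genes nearest SLC7A5 by Pearson r over 8 arrays and over 7 without vehicle replicate 1 (4 distinct genes). Alternatives were 3 normalizations between arrays, filters on the dimmest 25% or 50% of genes, averaged probe sets, a trended robust variance, array weights, the replicate number as a block, each array left out, and an exact permutation test. The number of arrays limits the precision. Each limma p-value sets a difference against the spread within the groups of these samples, drawn toward that of all genes.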

Additional observations from a re-analysis of the deposited data

Results flagged for a closer look

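In groups of 4 arrays, a value was singled out when its gap to the nearest other array exceeded Dixon's 95% limit as a share of the group's range, which chance does for about 1 in 20 groups. Of 54 groups checked among the named genes 6 met this, 3 of them among the 18 groups of the members. The share of groups that met this over all genes was not counted. Vehicle replicate 1 stood apart over all genes, so 1 in 20 is not a measured rate for these arrays. Whether the members were singled out more often than other genes was not tested. SLC38A1 in vehicle replicate 1 was at 5.54 against 2.84 to 3.17 in the other vehicle arrays, and SLC38A2 in the same array was at 5.32 against 2.58 to 2.92. SLC38A1 in doxycycline replicate 1 was at 3.06, below the 3.49 to 3.53 of the other doxycycline arrays. MYC in doxycycline replicate 2 was at 5.52 against 5.75 to 5.77. PLSCR4 in doxycycline replicate 2 was at 4.85 against 4.19 to 4.29, and SLC7A5, to which it was chosen for its likeness, was highest in that array too. TMEM82 in vehicle replicate 1 was at 5.42 against 6.24 to 6.36, and it was chosen for its likeness to SLC7A5 without that array.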

How the results depend on the processing

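Under 9 other settings and 8 fits that left out 1 array, limma called 0 members, 0 related genes and 0 of all genes tested, with a smallest adjusted p of 0.808. Of the members, 7 kept their sign in every fit that held them. SLC38A1 turned to 0.0312 with array weights and 0.35 without vehicle replicate 1, with a range of -0.55 to 0.35 over the fits that left out 1 array. SLC43A1 ranged from -0.0254 to 0.11 over those fits and ASNS from -0.20 to 0.0291. The cause of these turns was not tested. The members' median of -0.12 turned to 0.02 with array weights, 0.03 without vehicle replicate 1 and 0.04 without the dimmest 25% of genes, a filter that left 7 members, while 4 were left without the dimmest 50%. With the replicate number as a block 0 members were called; the block is balanced, so the median of -0.12 is the same by construction. The numbers are not said to pair the arrays: same-numbered arrays correlated in their deviations at -0.05, 0.15, 0.09 and 0.00293, and for 2 of 4 numbers each array correlated best with its namesake. Signal over background was not assessed, which limits what dim probe sets such as those of SLC38A1 and SLC38A2 can show.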
